A study of Pinus pinaster with 6 samples.

Results

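The 45 probes described here had strongly negative log ratios when developing xylem of the crown was set against developing xylem of the trunk base in maritime pine (Pinus pinaster). They are 45 of the 4224 probe IDs of a cDNA microarray (1.07%). They were selected on the deposited log2 ratios themselves: a mean over 3 trees of -1 or lower, which is at least a 2-fold difference, and a value below 0 on all 6 arrays. Levels and signs are therefore given as a description, with no test. The sources used here pair no probe ID with a gene, so the probes are called by their IDs, which give a plate number and a well, and no function is assigned to any of them.

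Each array carried crown RNA and base RNA of a single field-grown straight tree in different dyes, and each tree had 2 technical replicate arrays. Tree 1, aged 29 years and harvested in 2005, had its crown RNA labelled with Cy5 and its base RNA with Cy3. Tree 2, aged 31 years and harvested in 2005, and tree 3, aged 28 years and harvested in 2007, had the opposite labels, Cy3 for the crown and Cy5 for the base. Crown xylem came from the last 5 internodes and base xylem from the lowest stretch of the trunk, up to 1 m. All RNA was amplified before the dyes were coupled to it. The labels do not say which tissue is the numerator, nor whether the signs of tree 1 had been turned to match the other dye order, so no probe is called higher in crown or in base xylem. With the signs of tree 1 turned, 0 probes met the rule, and all counts below hold for the signs as deposited. The 6 array medians over all probes lay between -0.02 and 0.00. Precision is limited by there being 3 trees, since the 6 arrays are technical pairs.

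Developing xylem lies just inside the cambium and holds cells that expand, lay down a cellulose-rich secondary wall, deposit lignin in it and then die to become water-conducting tracheids. Wood formed within the living crown of a conifer is generally described as juvenile wood, with shorter tracheids and a larger angle of the cellulose microfibrils, and wood formed low on an old trunk as mature wood. Whether the scraped tissue held other cell types could not be checked against marker genes, because the probes carry no gene names here.

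The 45 probes covered a wide span, from a mean of -3.56 for Q10L17 to -1.01 for Q11F1, with a median of -1.34, which is a 2.53-fold difference. The median over all 4224 probes was -0.03. Of the 45, 12 differed at least 3-fold, 5 at least 4-fold and 1 more than 8-fold. The 5 largest stood apart from the rest: the step from the fifth to the sixth probe was 0.47 on the log2 scale, whereas no later step between neighbours exceeded 0.07. Without these 5, the median was -1.28.

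**Figure D1:**
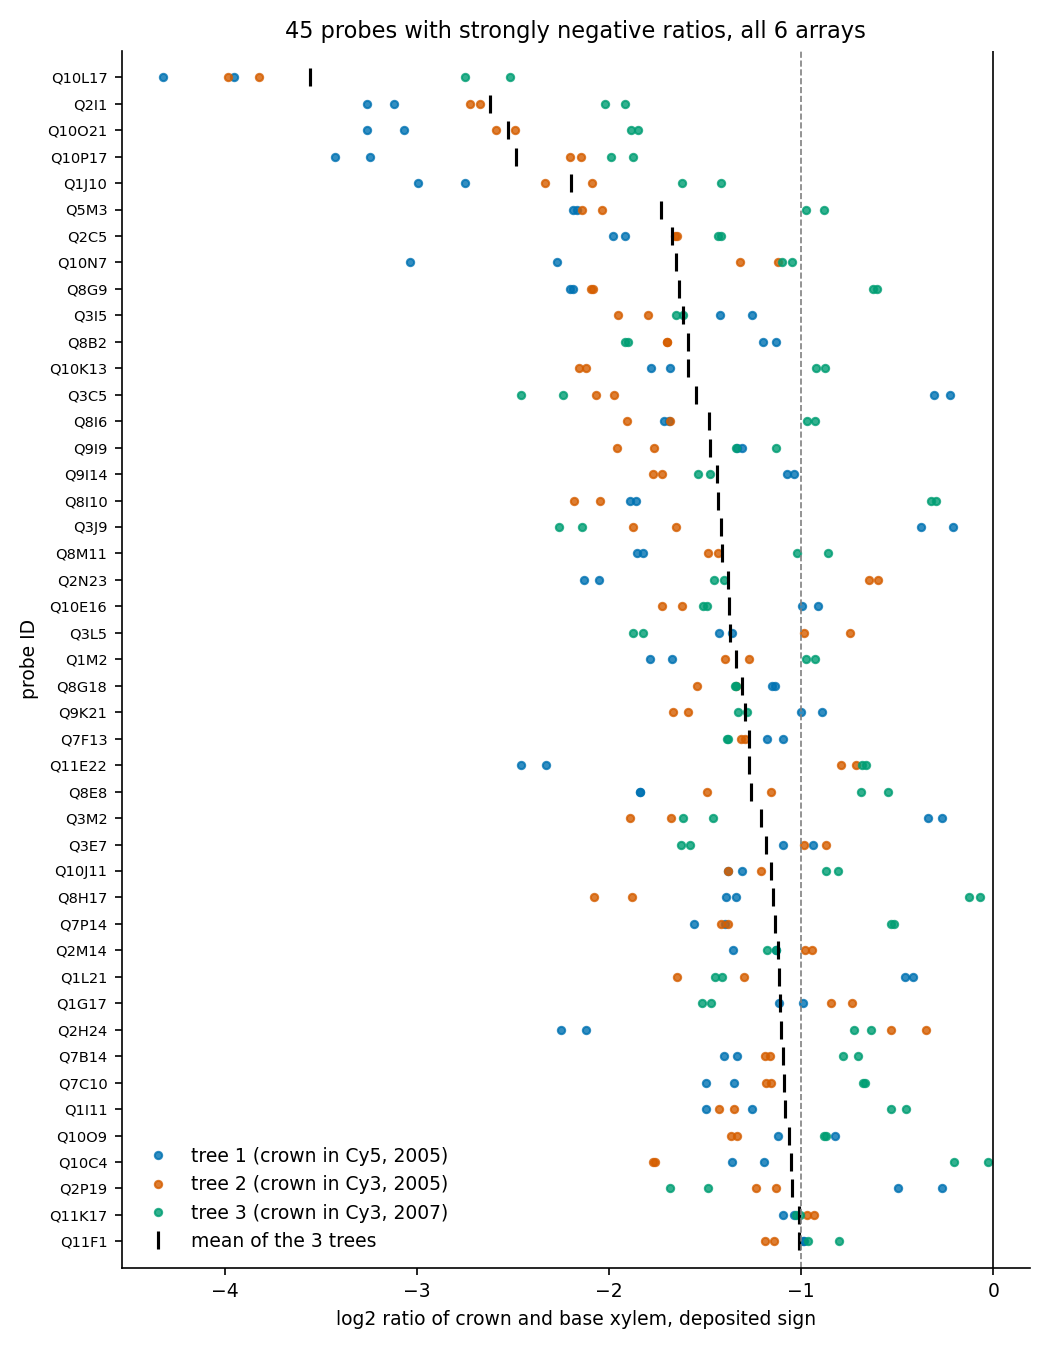
Log2 ratio (horizontal axis) of each of the 45 probes (rows, ordered by mean) on the 6 arrays, coloured by tree, with the mean of the 3 trees as a black bar. The 2 arrays of a tree lie close together, the 5 probes at the top stand apart, and many other probes have 1 tree much nearer to 0 than the other trees, such as Q3C5 in tree 1 and Q8H17 in tree 3.

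Q10L17 gave -4.32 and -3.95 on the arrays of tree 1, -3.82 and -3.98 in tree 2, and -2.51 and -2.75 in tree 3. It had the lowest ratio of all 4224 probes in each tree, and its mean of -3.56 ± 0.81 (SD, n = 3 trees) is an 11.8-fold difference. Tree 3 was the least negative, and trees 1 and 2 overlapped.

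Q2I1 gave -3.12 and -3.26 in tree 1, -2.72 and -2.67 in tree 2, and -1.92 and -2.02 in tree 3. Q10O21 was close to it in every tree, with -3.26 and -3.07, then -2.49 and -2.59, then -1.85 and -1.88. In both probes the 3 trees did not overlap, and their mean differences were 6.14-fold and 5.75-fold. Q10P17 gave -3.43 and -3.24 in tree 1, but only -2.21 and -2.15 in tree 2 and -1.88 and -1.99 in tree 3, a 5.58-fold difference on average. Q1J10 gave -2.99 and -2.75, -2.33 and -2.09, and -1.41 and -1.62 in trees 1, 2 and 3, a 4.59-fold difference. The SD between trees was 0.61, 0.65, 0.75 and 0.68 for Q2I1, Q10O21, Q10P17 and Q1J10. Among the 4224 probes, all 4 ranked between 2 and 5 from the lowest in trees 1 and 2, and between 5 and 14 in tree 3.

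Tree 1 was the most negative and tree 3 the least in all 5 of these probes. That order depended on scaling. The median size of the ratios over all probes was 0.23 to 0.25 on the arrays of tree 1 and 0.15 to 0.16 on those of trees 2 and 3. After every array was brought to the same median size, tree 3 was still the least negative for all 5, but tree 1 was the most negative for only 1, Q10P17. After quantile normalization, tree 3 was the least negative for 4 of the 5 and the full order held for 2. In the other one, Q10L17, the method itself makes the trees equal, since it was the lowest probe on all 6 arrays.

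At the threshold, the nearest probes inside the rule were Q11F1 and Q11K17, with means of -1.01 each, and the nearest outside were Q2D11 and Q7G23, with -0.97 and -0.95. Q11K17 was also the most even of the 45, with -1.10 and -1.04 in tree 1, -0.97 and -0.93 in tree 2 and -1.01 and -1.03 in tree 3 (SD between trees 0.06). Q7G23, just outside, was nearly as even, with -0.89, -0.93 and -1.03 as tree means, while Q2D11 owed its mean mainly to tree 1, with -1.72 against -0.63 and -0.57. Of the probes below 0 on all arrays, 3 had a mean between -1 and -0.9, and 8 of the 45 lay between -1.1 and -1. The condition on signs removed no probe, since every one of those with a mean of -1 or lower was negative on all 6 arrays.

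Few of the 45 were at -1 or lower throughout. In 13 all 3 trees reached -1, in 28 this was so in 2 trees and in 4 in 1 tree. Tree 3 reached -1 for 26 of the 45 probes, tree 1 for 36 and tree 2 for 37. The median ratio of the 45 was -1.37 in tree 1, with a span from -4.14 to -0.27. It was -1.47 in tree 2, from -3.90 to -0.44, and -1.24 in tree 3, from -2.63 to -0.10. By rank, which does not depend on how widely an array's ratios are spread, 33 of the 45 were among the 100 lowest probes in every tree, and 14 were among the 45 lowest in every tree.

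The same rule was also applied to 2 trees, and the probes it picked were read in the third tree, which that choice had not used. The members themselves were chosen with all 3 trees. The lists picked in 2 trees overlap with the members but are not the same set, so their readings are no independent check of the members. The rule picked 42 probes in trees 2 and 3, and all 42 were below 0 on both arrays of tree 1, against 47.4% of all probes there. Of these 42, 27 (64.3%) were at -1 or lower in tree 1, against 1.33% of all probes. Their median was -1.21 in the tree left out and -1.36 in the trees that chose them.

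With tree 2 left out, 42 probes were picked, 40 of them were below 0 on both arrays of tree 2 (background 42.6%), and 29 (69.0%) were at -1 or lower (background 1.33%), with a median of -1.42 against -1.31 in the trees that chose them. With tree 3 left out, 51 were picked, 49 were below 0 on both arrays of tree 3 (background 43.5%), and 22 (43.1%) were at -1 or lower (background 0.923%), with a median of -0.93 against -1.32 in the trees that chose them. Tree 3 thus gave the lowest share at -1 or lower, and each reading rests on the deposited signs and on the deposited scale of the arrays. The readings were not repeated under another scaling. Over the 45 probes, the medians in trees 1, 2 and 3 were -1.04, -1.68 and -1.42 with arrays brought to the same median size. After quantile normalization they were -1.32, -1.40 and -1.33. Of the 45 probes, 36, 37 and 41 were picked again without trees 1, 2 and 3.

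**Figure D2:**
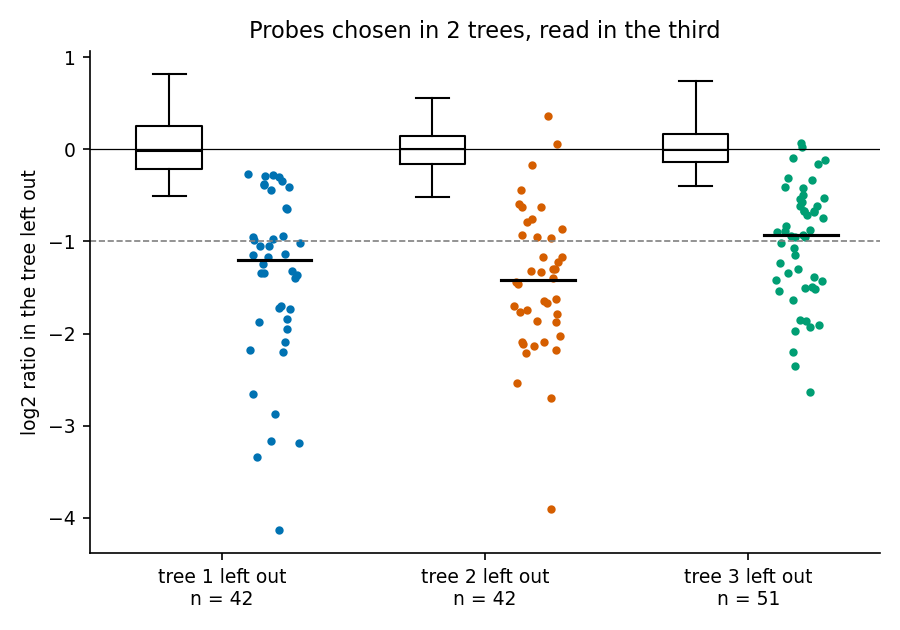
Log2 ratio in the tree left out (vertical axis) for probes chosen by the same rule in the other trees (points, with their median as a line), beside all 4224 probes in that tree (boxes with median and quartiles, whiskers from the 5th to the 95th percentile). The medians of the chosen probes are -1.21, -1.42 and -0.93 in trees 1, 2 and 3, and the points in tree 3 reach nearest to 0 as a group.

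Technical spread was small beside the spread between trees. The median difference between the 2 arrays of a tree, over the 45 probes, came to 0.09, 0.10 and 0.05 in trees 1, 2 and 3, near the values of 0.07, 0.07 and 0.06 over all probes. Only Q10N7 had a difference above 0.5: its arrays of tree 1 gave -3.04 and -2.27, and the ratios were -1.32 and -1.12 in tree 2 and -1.05 and -1.10 in tree 3. Its mean of -1.65 ± 0.87 (SD, n = 3 trees) therefore rests partly on a tree whose arrays were 0.77 apart. The SD between trees had a median of 0.51 over the 45 probes, from 0.06 to 1.12, and exceeded the technical SD, whose median was 0.08, in all 45, as it did in 83.9% of all probes. Over all 4224 probes the SD between trees had a median of 0.16. Set against the size of the mean, the SD between trees had a median of 0.31 in the 45. It was 0.48 in the 793 other probes that were negative on all arrays and 1.04 over all probes. A large mean was required of the 45 but not of the others, which lowers this relative SD by construction.

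Differences between trees were tested across all 4224 probes with limma, with the spread between technical arrays as the error and Benjamini-Hochberg adjustment. A call at an adjusted p under 0.05 means that 2 trees differed by more than technical spread and says nothing about other trees. At least 1 of the 3 comparisons was called for 44 of the 45 probes, against 72.7% of all probes. Trees 1 and 2 differed at 36 of the 45 (background 59.8%), trees 1 and 3 at 39 (50.6%) and trees 2 and 3 at 35 (29%). Typical differences were larger than over all probes: their median size was 0.49, 0.83 and 0.46 among the 45 in these 3 comparisons and 0.23, 0.19 and 0.13 over all probes. The rule used the same 6 arrays, and probes chosen for large ratios can also differ more between trees, so these counts are not independent of the choice, and nothing particular to the 45 is read from them.

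By direction, tree 1 was lower than tree 2 at 17 probes (background 26.7%) and higher at 19 (33.1%). Tree 1 was lower than tree 3 at 25 (26.3%) and higher at 14 (24.3%), and tree 2 was lower than tree 3 at 27 (19.7%) and higher at 8 (9.26%). These splits depend on scaling. With arrays brought to the same median size, tree 1 was lower than tree 2 at 4 and higher at 34 probes, and lower than tree 3 at 18 and higher at 20. The split of trees 2 and 3 was then 26 to 9, and it was 19 to 12 after quantile normalization. Over all 4224 probes, scaled arrays gave 2170 calls for trees 1 and 2 and 1724 for trees 1 and 3. For trees 2 and 3 there were 1418, and 1231 after quantile normalization. The directions of these calls over all probes were not counted. Which tree had the larger ratios as a whole is thus not settled.

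A first profile was a ratio nearer to 0 in tree 3 than in the other trees. Q8H17 gave -1.39 and -1.34 in tree 1 and -1.88 and -2.08 in tree 2, but -0.07 and -0.13 in tree 3. Q10C4 gave -1.36 and -1.19, then -1.77 and -1.76, then -0.03 and -0.20. Both probes ranked among the 34 lowest of 4224 in trees 1 and 2, but 1303rd and 1190th in tree 3. With arrays scaled, tree 3 remained the least negative in both, but the tree farthest from the others was then tree 2: Q8H17 had tree means of -1.04, -2.25 and -0.11, and Q10C4 of -0.97, -2.01 and -0.13.

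Q8I10 gave -1.86 and -1.89 in tree 1, -2.05 and -2.18 in tree 2 and -0.32 and -0.30 in tree 3. Q8G9 gave -2.20 and -2.19, -2.08 and -2.09, and -0.60 and -0.63. In tree 3 they ranked 335th and 90th from the lowest, so Q8G9 was still among the low probes there. In both, tree 3 was also the tree farthest from the others with arrays scaled, after quantile normalization and with plates centred. With arrays scaled this was narrow for Q8I10, where tree 1 lay 1.07 from tree 3 and 0.98 from tree 2. For Q8G9 these gaps were 0.97 and 0.70. Tree 1 minus tree 2 was 0.24 for Q8I10 and -0.11 for Q8G9, whereas tree 2 minus tree 3 was -1.81 and -1.47 (limma, adjusted p 3.5e-06 for both of the latter). Tree 3 was the least negative tree for 26 of the 45 probes as deposited, 22 with arrays scaled and 19 after quantile normalization. Among the 793 other probes that were negative on all arrays, tree 3 was the least negative in 39.1%.

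A second profile was a ratio near 0 in tree 1 alone. Q3C5, which had the largest SD between trees (1.12), gave -0.31 and -0.22 in tree 1, -2.07 and -1.98 in tree 2 and -2.46 and -2.24 in tree 3. Q3J9 gave -0.38 and -0.21, then -1.88 and -1.65, then -2.26 and -2.14. They ranked 2nd and 4th from the lowest in tree 3, but 808th and 709th in tree 1. Q3M2 had tree means of -0.30, -1.78 and -1.54, and ranked 667th in tree 1.

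All 3 of these probes lie on plate 3, whose 384 probes had medians of 0.11, -0.13 and -0.09 in trees 1, 2 and 3. With every plate centred on its median, tree 1 minus the mean of trees 2 and 3 was still 1.70 for Q3C5, 1.47 for Q3J9 and 1.13 for Q3M2, against 1.92, 1.69 and 1.36 as deposited. Q1L21 on plate 1 had the same profile, with means of -0.44, -1.47 and -1.43 in trees 1, 2 and 3. Q2P19 on plate 2 was more graded, with -0.38, -1.18 and -1.58. For these 5 probes tree 1 remained the tree farthest from the others under both scalings and with plates centred. For Q2P19 this was narrow after quantile normalization, where tree 2 lay 0.73 from tree 3 and 0.76 from tree 1.

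The third profile was a large ratio in tree 1 alone. Q11E22 gave -2.33 and -2.46 in tree 1, -0.72 and -0.79 in tree 2 and -0.68 and -0.66 in tree 3, the most negative difference between tree 1 and the other trees among the 45 (-1.68). Q2H24 gave -2.25 and -2.12 in tree 1, -0.53 and -0.35 in tree 2 and -0.63 and -0.73 in tree 3. Both means, of -1.27 and -1.10, rest on tree 1, and the tree 2 and 3 means of these probes did not reach -1. Tree 1 is also the only tree with crown RNA in Cy5, so tree and dye order cannot be told apart there.

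**Figure D3:**
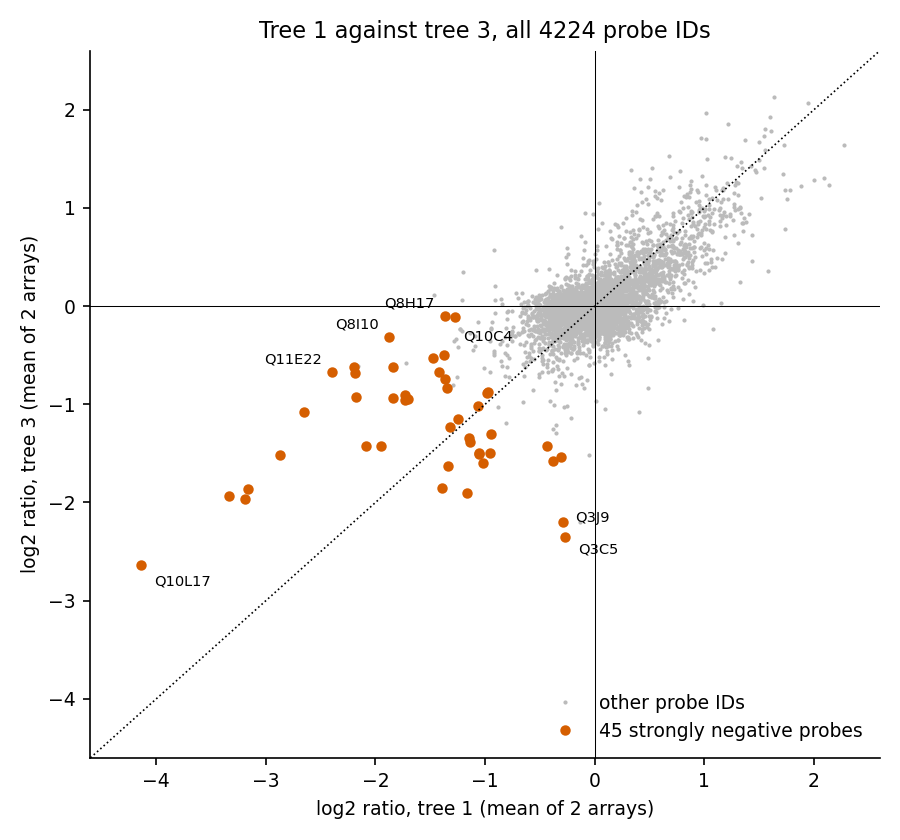
Log2 ratio of tree 1 (horizontal axis) against tree 3 (vertical axis), each the mean of 2 arrays, for the 45 probes (orange) and all others (grey), with the line of equal values dotted. Q10L17 lies lowest in both trees, Q8H17, Q10C4 and Q8I10 lie near 0 in tree 3, and Q3C5 and Q3J9 near 0 in tree 1.

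Over all 4224 probes, Pearson's r between tree means was 0.66 (trees 1 and 2), 0.72 (trees 1 and 3) and 0.75 (trees 2 and 3). Across the 45, whose means cover only part of that range, r was 0.48, 0.09 and 0.37 for the same pairs of trees. Without the 5 largest, r was -0.14, -0.54 and -0.02 (n = 40 probes). These coefficients describe probes that share 3 trees, and a low mean was required of each probe, which pushes them towards negative values. Between the 2 arrays of a tree, r over the 45 probes was 0.98 in each tree.

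Harvest year and dye order were each compared with 1 value per tree (limma, mean of the 2 arrays, 1 residual degree of freedom before moderation). Tree 3, harvested in 2007, differed from the mean of trees 1 and 2, harvested in 2005, at 8 of the 45 probes (adjusted p under 0.05), against 0.308% of all 4224 probes and 0 of the 65 strongly positive probes described below. In 6 of the 8 tree 3 was less negative: Q8I10, Q8H17, Q8G9, Q10C4, Q10L17 and Q5M3, by 1.21 to 1.68 on the log2 scale. In Q3C5 and Q3J9 tree 1 was the tree farthest from the others, and trees 2 and 3 were 0.33 and 0.44 apart. In both, tree 3 was more negative than the mean of trees 1 and 2, with differences of -1.205 and -1.173. Each difference has a standard error of 0.30, because this fit gave all probes a common variance, so the calls mark the largest differences and do not rest on how much each probe varied. The year is confounded with tree 3, and year and tree cannot be told apart. Probes chosen for large ratios can also differ more between trees. Nothing particular to the 45 is therefore read from the counts for harvest year or dye order. The median size of the difference between trees 2 and 3 was 0.46 both in the 45 and in the 65 positive probes. For trees 1 and 3 it was 0.83 and 0.31. With all 6 arrays and the tree as a random block, 2 of the 45 passed, Q8I10 and Q8G9 (background 0.0947%). With each probe's own variance, 0 passed, as over all probes, and 4 of the 45 had an unadjusted p under 0.05 (limma fit without moderation, background 2.77%). With arrays scaled, Q10L17 differed by 0.76 and Q5M3 by 0.95, and neither passed (limma, adjusted p 0.349 and 0.0678).

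At an unadjusted p under 0.05 (limma), harvest year gave 25 of the 45, against 2.89% of all probes. The matching comparison of tree 1, with crown RNA in Cy5, against trees 2 and 3 gave 0 of the 45 at an adjusted p under 0.05, as it did for all probes (0%), and 18 of the 45 at an unadjusted p under 0.05 (15.2% of all probes). On simulated data with the real spread between trees, this fit did not recover differences of a size common among the 45. That spread already includes the differences of tree 1, and with a small common spread the fit recovered most. Its lack of calls thus does not show that tree 1 was alike. The variance in this fit also differed between probes, whereas the harvest year fit gave all probes a common variance. The counts of both fits are therefore not comparable. Differences of tree 1 from the mean of trees 2 and 3 reached 1.92 for Q3C5 and -1.68 for Q11E22. With each probe's own variance, 2 of the 45 had an unadjusted p under 0.05 (limma fit without moderation), a lower share than the 8.66% of all probes. With all 6 arrays and the tree as a random block, 13 of the 45 passed the adjusted threshold in that comparison, against 7.55% of all probes. In 8 of these 13 tree 1 was higher, and in 5 it was lower.

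The probes were spread unevenly over the 11 plates of 384 IDs. Plate 10 held 9 of them, among which were Q10L17, Q10O21 and Q10P17, plate 8 held 8, and plates 2 and 3 held 6 each. Plates 4 and 6 held 0 and plate 5 held 1, Q5M3. As deposited, 8 of the 9 probes of plate 10 and 6 of the 8 of plate 8 were least negative in tree 3. On plate 3, 4 of the 6 were least negative in tree 1 and 0 in tree 3. These counts were not repeated under another scaling, nor made for the other probes of each plate. Only 2 pairs sat in neighbouring wells, Q1I11 with Q1J10 and Q8G18 with Q8H17, and the means in a pair differed, at -1.09 and -2.20 and at -1.31 and -1.15. Whether any of the 45 are clones of the same transcript was not tested.

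The mirror rule, a mean of 1 or higher and a value above 0 on all arrays, gave 65 probes. The largest of these had a mean of 1.95 and their median was 1.16, so 0 of the 65 reached 4-fold and 8 reached 3-fold, against 5 and 12 of the 45 negative probes. They also varied less between trees in absolute size: the SD between trees had a median of 0.32, against 0.51. Set against the size of the mean, this SD had a median of 0.25, against 0.31. Trees lay more than 1 apart on the log2 scale in 8 of the 65 and in 21 of the 45. Over all 4224 probes this was so in 82. By plate, plates 4 and 6, with no strongly negative probe, held 9 and 7 of the positive ones, and plate 7 held 1 positive and 4 negative ones. These are descriptions of chosen sets, and the differences between them were not tested.

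**Figure D4:**
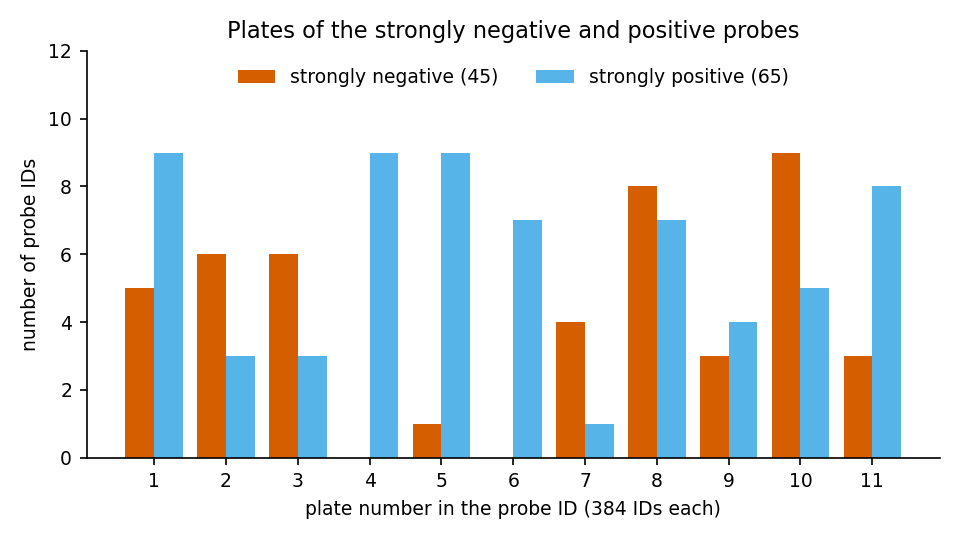
Number of probe IDs (vertical axis) per plate (horizontal axis) among the 45 strongly negative and the 65 strongly positive probes, each plate holding 384 IDs. Plates 10 and 8 hold the most negative probes, 9 and 8, and plates 4 and 6 hold positive probes only.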

How the data were processed

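The deposited table holds a log2 ratio of both dyes for 4224 probe IDs on 6 two-colour cDNA arrays. Its log base, direction, background correction and normalization are, in the sources used here, not given. All fold values assume base 2, the base limma uses for such ratios; limma 2.14.5 and R 2.7.1 are the tools named in the submitters' processing notes.

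Members and named probes were chosen with earlier results of these data known. Technical replicates were averaged within a tree before the means were taken. Trees were compared with limma 3.58.1 in R 4.3.3 (lmFit, eBayes, two-sided, Benjamini-Hochberg adjustment over 4224 probes), once over the 6 arrays and once on the 3 tree means. On simulated data the fit over arrays recovered most of the differences put in. The fits on tree means estimated their size correctly, but with the real spread between trees they called most of the larger differences tried and none of the smaller. Named are the 5 lowest means, the probes nearest the threshold, those with the widest and narrowest spread, the extremes of the tree comparisons and the 8 called for harvest year. Q3M2, Q1L21, Q2P19, Q2H24 and probes named by plate or well were named after their values were seen. Figures used matplotlib 3.10.9.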

Additional observations from a re-analysis of the deposited data

Results flagged for a closer look

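The test of the difference between harvest years, tree 3 of 2007 against the mean of trees 1 and 2 of 2005, passed for 8 of the 45 probes (limma, adjusted p under 0.05), against 0.308% of all probes. The fit has 1 residual degree of freedom and gave all probes a common variance. With the tree as a random block 2 of the 45 passed, and with each probe's own variance 0. Tree 3 was less negative for Q8I10 by 1.68, Q8H17 by 1.57, Q8G9 by 1.53, Q10C4 by 1.41, Q10L17 by 1.39 and Q5M3 by 1.21 on the log2 scale. It was more negative for Q3C5 and Q3J9, with differences of -1.205 and -1.173. In both of these probes, however, tree 1 was the tree farthest from the others, and trees 2 and 3 were 0.33 and 0.44 apart. With arrays scaled, the calls for Q10L17 and Q5M3 ended, at 0.76 and 0.95. A single tree stands for 2007, so tree and year cannot be told apart. Probes chosen for large ratios can also differ more between trees, so nothing particular to the 45 is read from this count. With 3 trees, no test for an outlying tree was made.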

How the results depend on the processing

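The number of probes under the rule stayed within 1.5 times of 45 in all settings tried, with 2 exceptions. It was 29 at a mean of -1.2 or lower and 0 with tree 1 turned, a setting added after the data were seen. For the 45 themselves the latter follows from the condition on signs. Leaving out a tree gave 42 to 51. With tree 1 turned, the means of Q10N7 and Q11E22 changed sign, to 0.12 and 0.32, as did those of Q2H24, to 0.35, and Q2N23, to 0.013. The tree comparisons over arrays kept their counts within 1.5 times in 40 of 42 settings. The others required a size of at least 0.5, by construction a subset. They gave 21 for trees 1 and 2 and 20 for trees 2 and 3, against 564 and 262 of all 4224 probes. Leaving out 1 array left its tree with a single array, and each count stayed within 1.5 times. With the tree as a random block, dye order gave 13 and harvest year 2. With each probe's own variance, added after seeing the data, harvest year gave 0 (limma fit without moderation; 4 at an unadjusted p under 0.05). The cause was not tested. Q3C5 and Q3J9 also lost the harvest year call with robust variances, at unchanged differences, and with plates centred, at -1.12 and -1.09. Q10L17 and Q5M3 lost it with arrays scaled, at 0.76 and 0.95. Q3J9 and Q5M3 lost it with the first technical replicates alone and Q3C5 with the second. Leaving a tree out of the per-tree fits left no residual degrees of freedom. Signal over background was not analysed here.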
